A study of Bos taurus with 6 samples.

Results

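The genes described are the block of cattle Ensembl identifiers ENSBTAG00000043544 to ENSBTAG00000043584, the stretch of identifiers that holds the cattle mitochondrial genome. Members were selected on the identifier number, with no measured value, although the block itself was put forward with its reads in these libraries known. Of the 41 numbers in that range, 37 are in the expression table, out of 15265 genes in all. The RefSeq table of the cattle assembly ARS-UCD2.0 also lists 37 mitochondrial genes, of which 13 code for proteins, 2 are ribosomal RNAs and 22 are transfer RNAs. The expression table gives identifiers without names, and 0 of its 15265 identifiers could be matched to the RefSeq table. Which member is which mitochondrial gene, and whether each lies on the mitochondrial chromosome, was therefore not checked, and members are called by identifier.

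The tissue was ovarian cortex of Bos taurus, the outer layer of the ovary, cut into strips from ovaries collected at an abattoir after natural follicles had been removed. Control strips were cultured in tissue medium, and high NEFA strips in medium with palmitic, stearic and oleic acid, combined to 0.72 mM, the non-esterified fatty acids (NEFA) of the group's name. All strips were kept for 8 days at 38.5 °C under 5% CO2, with 25% medium supplementation on alternate days. The treatment protocol in the labels mentions the fatty acids for control samples too, so the control condition rests on the group label. There were 3 libraries a group, numbered 2, 4 and 5 in both. RNA was profiled by 3′-tag sequencing, which reads the ends of transcripts. Nothing in the labels ties the replicates to separate ovaries, and p-values here measure only the spread between these samples, which may be technical. The labelled tissue was not checked against marker genes, because symbols could not be joined to the identifiers.

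The mitochondrial genome is a small circle that is transcribed from both strands into long precursors, which are cut apart mostly at the transfer RNAs between the other genes. Its proteins are core subunits of respiratory complexes I, III and IV and of ATP synthase, and its ribosomal and transfer RNAs serve the translation of those proteins inside the organelle. Mitochondria also oxidise fatty acids, which feed electrons into this chain. The kit used here primes on poly(A), and mature mitochondrial messenger RNAs carry short poly(A) tails while mature transfer RNAs carry none. Read counts of different members are therefore given as shares of reads, not as levels per length.

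By the reads recovered from the deposited values, most reads of every library fell in the block. Its joint share of reads was 78.5%, 85.9% and 73.6% in control replicates 2, 4 and 5, and 70.3%, 74.1% and 71.5% in high NEFA replicates 2, 4 and 5. The widest 95% Wilson interval of these shares was ± 0.0856 percentage points, which covers counting error only, not the recovery of reads from the deposited values. The control mean was 79.4% ± 6.20 (SD, n = 3) and the high NEFA mean 72% ± 1.97 (SD, n = 3), a difference of -7.41 percentage points. These shares rest on the reads of the 2 most abundant genes, which lie above the range where reads could be checked to be whole. If the deposited scale had a slope of 1 log2 per doubling above that range, those genes would have between 2.65 and 5.71 times fewer reads. The joint shares would then be 49.9%, 55.8% and 47.5% in controls and 45.0%, 47.9% and 45.8% in high NEFA, a difference of -4.80 points. Those lower reads, put through the same transformation, missed the deposited values of other genes by up to 0.46 log2. The reads used here missed by under 0.0001 log2, but those of the leading genes were solved for to give the deposited values back. A slope of 1 supposes another scale, so these misfits do not decide between the shares. With the reads used here, the groups overlapped, since control replicate 5 lay below high NEFA replicate 4, and the difference was little larger than the SD among controls. Without control replicate 4 the difference was -4.12 points, and without control replicate 5 it was -10.3 points. No test was made of this joint share, because the block was picked with results of these data known. In strips of tissue, fewer cells of a type and less RNA per cell cannot be told apart.

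**Figure D1:**
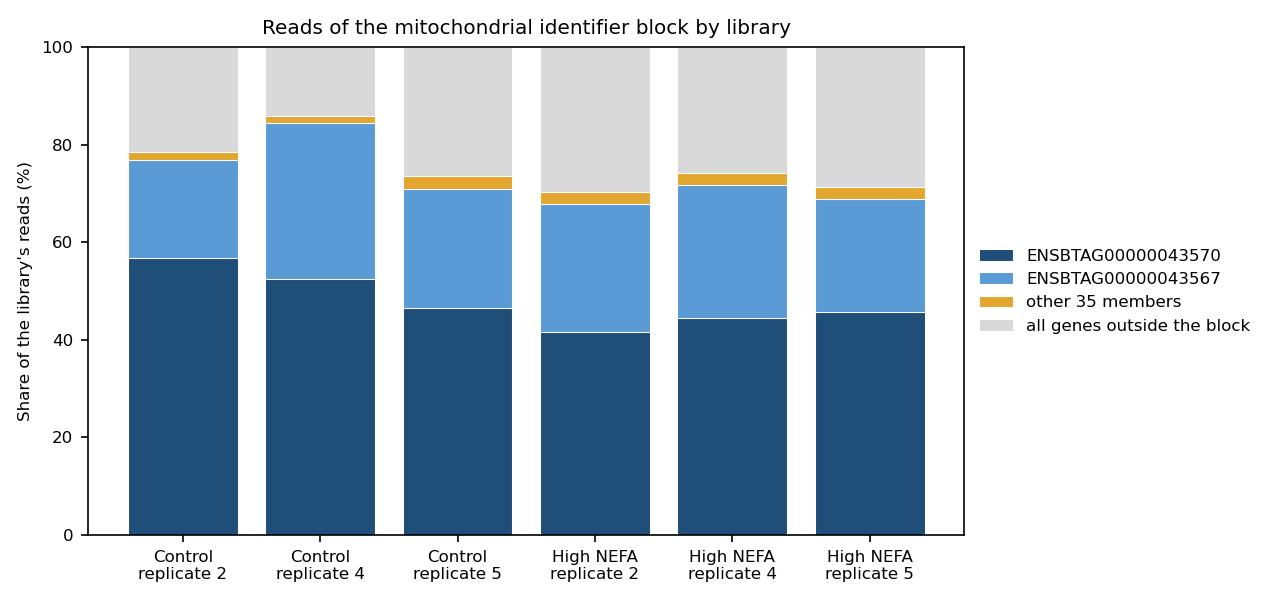
Bars show the share of each library's reads (%, axis from 0 to 100) taken by ENSBTAG00000043570, ENSBTAG00000043567, the other 35 members and all genes outside the block. The first gene takes between 41.7% and 56.7%, with all 3 high NEFA bars below the 3 control bars, and the block as a whole takes 70.3% to 85.9%.

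The depth left for other genes differed between libraries. Total reads per library ran from 883739 to 2251526 with the solved reads of the leading genes, or from 378506 to 1186315 with a slope of 1. Reads outside the block, which do not depend on that choice, ran from 186109 in control replicate 4 and 189805 in control replicate 2 to 642717 in high NEFA replicate 5. These controls, with the fewest reads outside the block, had the highest joint shares, and control replicate 4 also had reads for the fewest genes, 9157 against 10393 to 11938 in the other libraries. The part of depth in the results was not tested, and values without control replicate 4 stand beside the results that moved with it. Expressed as reads of the block per read outside it, the values were 3.66, 6.11 and 2.79 in controls and 2.37, 2.87 and 2.50 in high NEFA.

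The block was divided very unequally between its members. ENSBTAG00000043570 took 56.7%, 52.5% and 46.6% of all reads in control replicates 2, 4 and 5, and 41.7%, 44.4% and 45.7% in the high NEFA replicates of the same numbers. Every high NEFA value was lower than every control value, with means of 51.9% ± 5.08 and 43.9% ± 2.06 (SD, n = 3 each). The gap between the lowest control and the highest high NEFA library was small beside the spread within either group.

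ENSBTAG00000043567, the second most abundant gene of the whole table, took 20.2%, 32.0% and 24.3% of reads in controls and 26.1%, 27.4% and 23.1% in high NEFA. Its group means were the same to 3 digits, 25.5% ± 6.0 and 25.5% ± 2.19 (SD, n = 3 each). The other 35 members together took 1.63%, 1.43% and 2.69% of reads in controls and 2.46%, 2.37% and 2.61% in high NEFA, again with overlapping groups. In these shares, the lower joint share of the high NEFA group thus lay in the most abundant member alone among the 3 portions. The equal means of the second member rest on 2 controls at opposite ends, 20.2% in control replicate 2 and 32.0% in control replicate 4. Without the first the control mean would be the higher one, and without the second the lower one. By level, given below as scaled reads, the second member too had the lower mean in high NEFA.

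The ratio between the leading members varied most among controls. There were 2.81, 1.64 and 1.91 reads of ENSBTAG00000043570 per read of ENSBTAG00000043567 in control replicates 2, 4 and 5, and 1.59, 1.62 and 1.98 in high NEFA replicates 2, 4 and 5. Control replicate 2 stood above the rest, and the other 5 libraries lay between 1.59 and 1.98. As a share of block reads, the most abundant member had means of 65.5% ± 5.90 in controls and 61.1% ± 2.56 in high NEFA (SD, n = 3 each). That difference of -4.48 points became -1.13 points without control replicate 2.

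Among reads outside the 2 leading genes, the other 35 members held a steadier portion. It was 7.07%, 9.24% and 9.27% in controls and 7.64%, 8.40% and 8.38% in high NEFA, so the high NEFA libraries all lay inside the control range. Within those 35 members, ENSBTAG00000043564 was the largest, with 16.9%, 34.4% and 22.1% of their reads in controls and 16.8%, 22.7% and 21.7% in high NEFA. Control replicate 4 stood alone at the top of that range.

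By level the members fell into separate groups. Levels are given as scaled reads, the reads of a gene divided by the library's scaling factor, which is set by the bulk of genes and not by the total. The 14 most abundant members had mean levels of 1038 scaled reads or more and all ranked among the 50 most abundant genes of the table, the lowest at rank 46. The next member had a mean of 215 scaled reads. Another 10 members passed the low-read filter, and 13 did not.

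The 13 members that did not pass had between 1 and 52 reads each over all 6 libraries, 273 reads in all, and were not tested. Over the 37 members, 25 had reads in all 6 libraries. The number of members without a read was 2, 12 and 2 in control replicates 2, 4 and 5, and 4, 1 and 4 in high NEFA replicates 2, 4 and 5. Control replicate 4 thus lacked reads for many of the scarce members while having the largest share of reads in the block.

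The identifier range has a scarce gene at its lower end and an abundant one at its upper end. The first member, ENSBTAG00000043544, had a mean of 1.43 scaled reads, and the nearest identifier below the range, ENSBTAG00000043530, had 3.20. The last member, ENSBTAG00000043584, had a mean of 2151 scaled reads, and the nearest identifier above the range, ENSBTAG00000043589, had 8.95. The sharp step at the upper end is a description, with no test.

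**Figure D2:**
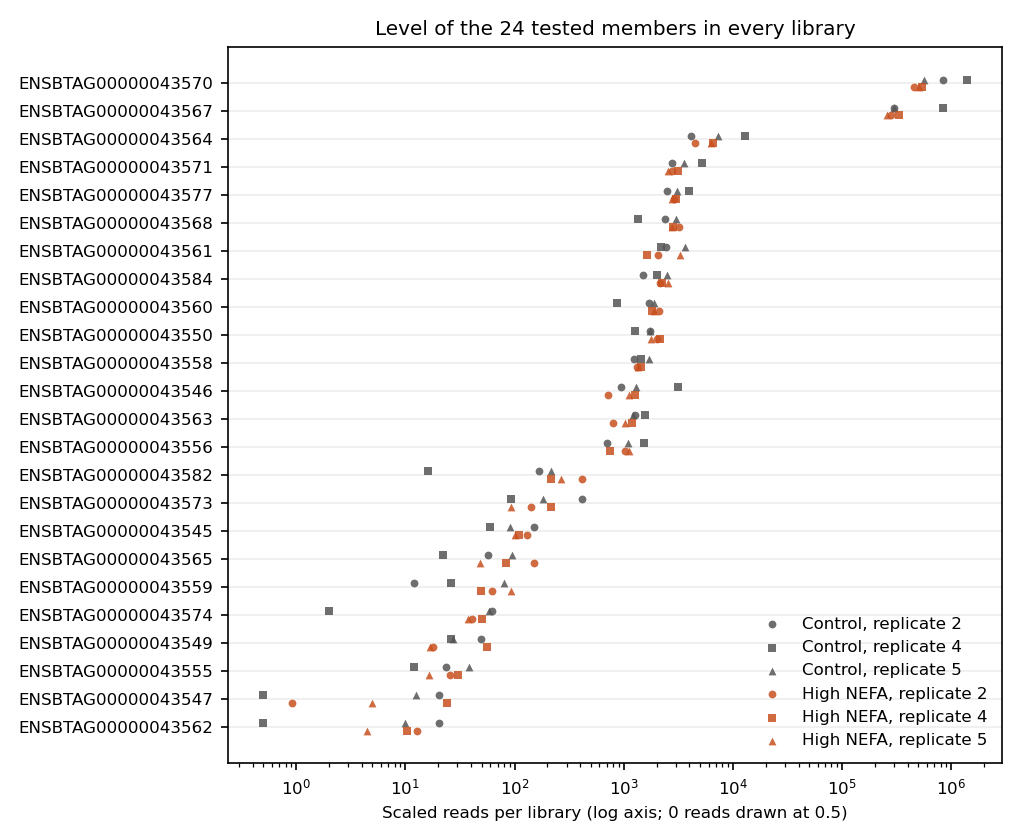
Points show scaled reads (log axis) of each of the 24 members that passed the filter, in each of the 6 libraries, with controls in grey and high NEFA in orange and the replicate number given by the shape. The highest level is 1390600 scaled reads, and the control replicate 4 squares lie at the right end for the leading members and at the left end for most scarce ones.

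The comparison asked which transcripts differed in level after culture with the fatty acids, and no member passed the test. With limma on the deposited log2 values of 4713 tested genes, 0 genes, and hence 0 of the 24 tested members, had a Benjamini-Hochberg adjusted p under 0.05 (background 0%). The adjusted p of members ran from 0.948 to 0.995. Without adjustment, 137 tested genes had a p under 0.05 (2.91%, made up of 2.02% higher and 0.891% lower in high NEFA), and 0 members did. With limma-voom on the recovered reads, 0 genes passed after adjustment and 91 had an unadjusted p under 0.05, of which ENSBTAG00000043570 was the only member. In 12 of 18 alternative limma fits at least 1 member had an unadjusted p under 0.05, and 7 members did so in all. The 3 most often were ENSBTAG00000043570, ENSBTAG00000043559 and ENSBTAG00000043582. The share of all genes with such a p in any fit was not computed, so no background stands beside the 7. Without control replicate 5, 3 of the 24 members and 536 of 4713 genes had such a p. Without high NEFA replicate 5, 0 members and 33 genes did. None of the 7 passed after adjustment in any of these fits.

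Of the 24 tested members, 11 had a higher mean and 13 a lower mean in high NEFA, with a median difference of -0.09 on the deposited log2 scale, against 0.03 over all tested genes, 53.0% of which had the higher mean in high NEFA. Among the 14 abundant members 4 were higher and 10 lower, and among the 10 scarce ones 7 were higher and 3 lower. These directions depended on the scaling. With libraries scaled to all their reads, on log2 of the recovered reads, 22 of the 24 members had the higher mean. So did the bulk of other genes, whose median difference was then 0.57, against 0.05 on log2(scaled reads + 1). Scaled to reads outside the block, 12 members were higher and 12 lower, with a median of 0.13 over other genes. The precision was limited by 3 libraries a group. The 95% intervals of the members had half-widths of 0.52 to 1.88 log2, with a median of 0.77, and the whole interval lay within ± 1 log2 for 9 of the 24 members, against 49.9% of all tested genes.

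**Figure D3:**
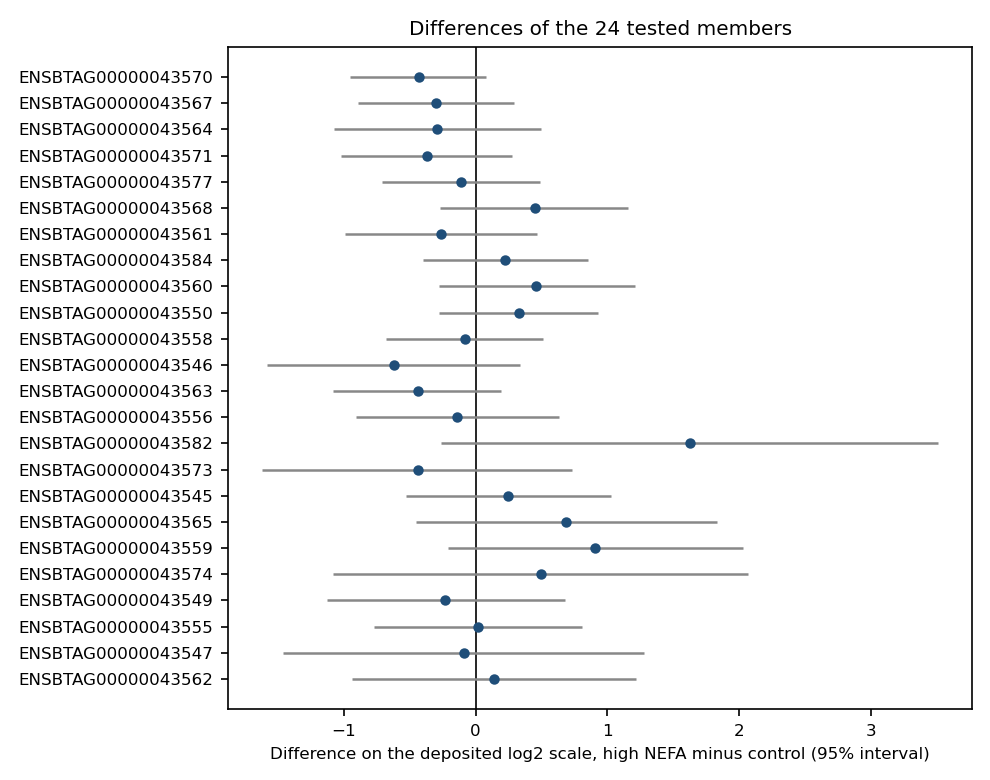
Points show the difference of high NEFA minus control on the deposited log2 scale for the 24 tested members, ordered from the most to the fewest reads, and lines show 95% intervals from limma. Every interval crosses 0, the widest belonging to ENSBTAG00000043582, whose difference was 1.63.

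The most abundant member, ENSBTAG00000043570, had 848499, 1390600 and 567677 scaled reads in control replicates 2, 4 and 5, and 451680, 541707 and 512273 in high NEFA replicates 2, 4 and 5. All high NEFA libraries lay below all controls, control replicate 4 was the highest, and control replicate 5 was close to the high NEFA range. On the deposited log2 scale the difference was -0.43 ± 0.23 (SE; limma, unadjusted p = 0.0928, adjusted p = 0.948). Under the inferred transformation, the deposited scale compresses very abundant genes. On log2(scaled reads + 1), with reads solved under it, the same libraries differed by -0.81 ± 0.35 (SE; 95% interval -1.59 to -0.02; limma, unadjusted p = 0.0455, adjusted p = 0.940). A slope of 1 on the log2 scale would leave the difference at the deposited -0.43, so the -0.81 rests on the inferred curve. Without control replicate 4 the deposited-scale difference was -0.26. With libraries scaled to all their reads, on log2 of the recovered reads, this member differed by -0.24. That value stands beside the -0.81, not beside the -0.43 of the deposited scale. Its reads, like those of the second member, were solved for from the shape of the transformation and carry more uncertainty than those of the other members. Reads of the third, ENSBTAG00000043564, were solved for in the same step and came out whole.

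ENSBTAG00000043567 had 301850, 847400 and 296577 scaled reads in controls and 283309, 334034 and 258923 in high NEFA. Control replicate 4 alone stood far above, and the other 5 libraries lay close together. The deposited-scale difference was -0.30 ± 0.27 (SE; limma, adjusted p = 0.954), and -0.02 without that library.

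The next members in abundance repeated a high value in control replicate 4. ENSBTAG00000043564 had 4127, 13050 and 7264 scaled reads in controls and 4467, 6581 and 6348 in high NEFA, with a deposited log2 difference of -0.29 ± 0.35 (SE). That difference was 0.06 without control replicate 4, so its direction turned on this library. ENSBTAG00000043571 had 2758, 5232 and 3561 scaled reads in controls and 2765, 3150 and 2532 in high NEFA, with a log2 difference of -0.37 ± 0.29 (SE), and -0.15 without control replicate 4. ENSBTAG00000043577 was the steadiest of the 5 most abundant, with 2512, 3984 and 3092 scaled reads in controls and 2889, 3000 and 2789 in high NEFA. Its log2 difference was -0.11 ± 0.27 (SE), and 0.05 without control replicate 4.

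Among members with a higher mean in high NEFA, ENSBTAG00000043582 had the smallest p. It had 169, 16 and 214 scaled reads in controls and 415, 214 and 264 in high NEFA, where the 16 of control replicate 4 rests on 8 reads. Its deposited log2 difference was 1.63 ± 0.81 (SE; 95% interval -0.26 to 3.51; limma, unadjusted p = 0.0817, adjusted p = 0.948). Control replicate 4 was far below the rest and control replicate 5 reached the high NEFA range. Without control replicate 4 the difference was 0.59.

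ENSBTAG00000043559 had 11.9, 26.0 and 80.9 scaled reads in controls and 61.7, 49.1 and 93.0 in high NEFA. Control replicates 2 and 4, whose values rest on 7 and 13 reads, lay below all high NEFA libraries, and control replicate 5 lay among them. The log2 difference of 0.91 ± 0.50 (SE; limma, unadjusted p = 0.0991, adjusted p = 0.948) was 1.51 without control replicate 5 and 0.43 without control replicate 2. ENSBTAG00000043568, one of the 14 abundant members, had 2373, 1352 and 2998 scaled reads in controls and 3210, 2849 and 2778 in high NEFA. Here control replicate 4 was the lowest library, and the log2 difference of 0.45 ± 0.32 (SE; limma, adjusted p = 0.948) was 0.13 without it.

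Among members with a lower mean in high NEFA, beside the leading ones, ENSBTAG00000043563 had the smallest p. It had 1280, 1580 and 1213 scaled reads in controls and 799, 1202 and 1025 in high NEFA, so the groups did not overlap, by a narrow margin between control replicate 5 and high NEFA replicate 4. Its log2 difference was -0.44 ± 0.29 (SE; limma, unadjusted p = 0.153, adjusted p = 0.948), and -0.28 without high NEFA replicate 2. ENSBTAG00000043546 had 938, 3118 and 1304 scaled reads in controls and 713, 1280 and 1119 in high NEFA, with control replicate 4 again far above the rest. Its log2 difference was -0.62 ± 0.43 (SE; limma, adjusted p = 0.948), and -0.14 without that library.

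ENSBTAG00000043573, a scarce member, had 415, 92.0 and 183 scaled reads in controls and 141, 215 and 92.5 in high NEFA. The groups covered much the same range, and the log2 difference of -0.44 ± 0.53 (SE) turned to 0.12 without control replicate 2. The scarcest tested member, ENSBTAG00000043562, had 20.3, 0 and 9.95 scaled reads in controls and 12.7, 10.3 and 4.48 in high NEFA. The 0 of control replicate 4 allows up to 6.0 scaled reads in that library, and no difference was detectable at this depth (log2 difference 0.14 ± 0.49, SE). With so few reads the value followed the scale, being 0.62 on log2(scaled reads + 1) and 1.63 with a pseudocount of 0.1. It was 1.11 when scaled to reads outside the block, where the added 1 also weighed less than in scaled reads.

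Groups without overlap were counted among the 24 tested members. For 2 of them, ENSBTAG00000043570 and ENSBTAG00000043563, high NEFA was the lower group, as for 172 of 4713 tested genes (3.65%). With so few members, such counts are not read as above or below the background. One member was higher in high NEFA without overlap, against 4.73% of tested genes: ENSBTAG00000043550, singled out after its values were seen, with 1725, 1274 and 1739 scaled reads in controls and 2018, 2144 and 1763 in high NEFA. Its log2 difference was 0.33 ± 0.27 (SE; limma, adjusted p = 0.949). The margin between control replicate 5 and high NEFA replicate 5 was small beside the spread within the groups.

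The abundant members did not vary together across libraries. Control replicate 4 was the highest library for 8 of the 14 abundant members and the lowest for 3 of them, and it was the lowest for 8 of the 10 scarce ones. Over all tested genes it was the highest for 28.3% and the lowest for 30.4%. The ratio of control replicate 4 to the median of the other 5 libraries was 2.86 for ENSBTAG00000043567, 2.79 for ENSBTAG00000043546, 2.57 for ENSBTAG00000043570 and 2.06 for ENSBTAG00000043564. In the same library it was 0.474 for ENSBTAG00000043568 and 0.458 for ENSBTAG00000043560, which had mean levels in the same class. Members of the block thus moved in opposite directions within a single library.

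Correlations with the most abundant member over the 6 libraries ran from strongly positive to strongly negative. On log2(scaled reads + 1), Pearson's r with ENSBTAG00000043570 was 0.88 for ENSBTAG00000043567, 0.86 for ENSBTAG00000043563, 0.80 for ENSBTAG00000043546 and 0.77 for ENSBTAG00000043571. It was -0.97 for ENSBTAG00000043568, -0.95 for ENSBTAG00000043582, -0.94 for ENSBTAG00000043560 and -0.88 for ENSBTAG00000043550. Control replicate 4 lies at one end of each of these members. The other tested members lay between them, with r from 0.62 for ENSBTAG00000043564 to -0.85 for ENSBTAG00000043565, and -0.01 for ENSBTAG00000043558. All values come from the same 6 libraries and scaling factors and carry no test. Nuclear copies of mitochondrial sequence exist in mammals, and how reads shared between copies were counted is not given in any source at hand.

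**Figure D4:**
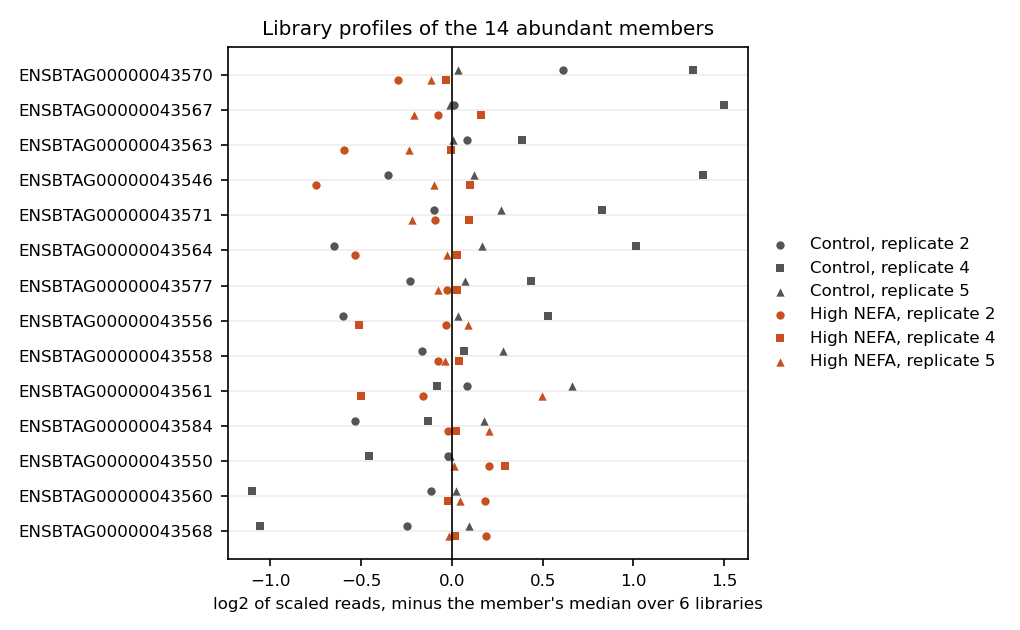
Points show log2 of scaled reads minus the member's own median over the 6 libraries, for the 14 abundant members, ordered by their correlation with ENSBTAG00000043570. The control replicate 4 square lies well to the right for ENSBTAG00000043570, ENSBTAG00000043567 and ENSBTAG00000043546 and well to the left for ENSBTAG00000043560 and ENSBTAG00000043568.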

How the data were processed

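One table of 15265 genes by 6 libraries was used, with columns matched to samples by title. Its values are deposited on a log2 scale; the authors' step from reads to these values was not described in any source at hand. The submitters' processing notes name FastQC 0.11.2, Trimmomatic, STAR 2.7, featureCounts, DESeq2 and ARS-UCD1.2. The use of molecular identifiers, the annotation release and the counting rules were not given in any source at hand, so the units are called reads, and counting intervals treat them as independent.

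Reads were recovered from the discrete steps of the values: a variance-stabilising transformation with a locally fitted dispersion trend, applied to recovered reads divided by median-of-ratios factors, gave back all 91590 values within 0.0001 log2. All values up to 20000 reads were whole within 0.1. The 12 values of the 2 most abundant genes lie above that and were solved for, to the nearest 100 reads. Joint shares, library totals and levels of those genes rest on this inferred transformation: a slope of 1 on the log2 scale would give 2.65 to 5.71 times fewer reads for them. The test on the deposited values does not use these reads beyond the filter. The recovery and the test were tried on simulated data. For the recovery these were made with the same transformation, so the trial cannot show that it was the one used for the deposit. The reads simulated for the test had the same dispersion in every gene.

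Genes with at least 10 scaled reads in 3 libraries and 15 reads in all were tested (4713), a filter set after the data were seen. High NEFA was compared with control by limma 3.58.1 in R 4.3.3 on the deposited values, with intensity trend and robust moderation, two-sided, Benjamini-Hochberg adjusted, threshold 0.05. Shares were computed in Python 3.11.15 and not tested. Full values are given for the 5 members with most reads, the 3 further ones with the smallest p in each direction and the scarcest tested one. The members and lists were chosen with earlier results of these data known. Pathway and cell type lists need gene symbols and were not used here. Alternatives covered the filter, scale, pseudocount, library scaling, moderation, denominators, a replicate block and leaving out libraries.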

Additional observations from a re-analysis of the deposited data

How the results depend on the processing

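In 18 alternative limma fits, 0 genes passed the adjusted threshold. The smallest adjusted p of a described member was 0.395, for ENSBTAG00000043559 without control replicate 5. Of 213 alternative values for the 12 described members, 199 kept their direction and 14 did not. Filter, moderation and replicate block cannot change a difference. Scaling to all reads, on log2 of the recovered reads, turned ENSBTAG00000043567 to 0.02, ENSBTAG00000043564 to 0.21 and ENSBTAG00000043571 to 0.16. It also turned ENSBTAG00000043577 to 0.45, ENSBTAG00000043563 to 0.13 and ENSBTAG00000043573 to 0.12. Without control replicate 4, ENSBTAG00000043564 turned to 0.06, ENSBTAG00000043577 to 0.05 and ENSBTAG00000043562 to -0.42, and without both libraries numbered 4 the last 2 were 0.03 and -0.48. Without control replicate 2, ENSBTAG00000043573 was 0.12, and ENSBTAG00000043562 was -0.01 without high NEFA replicate 2 and -0.10 with limma-voom. Over single libraries left out, the lowest and highest values were -0.63 and 0.06 for ENSBTAG00000043564, -0.26 and 0.05 for ENSBTAG00000043577, -0.97 and 0.12 for ENSBTAG00000043573 and -0.42 and 0.58 for ENSBTAG00000043562. The cause of these turns was not tested. The count of genes at an unadjusted p under 0.05, 137 as reported, was 448 unfiltered, 56 with a stricter filter, 91 with limma-voom, 319 scaled to all reads, 226 without control replicate 2 and 536 without control replicate 5. It was 47 and 33 without high NEFA replicates 4 and 5, and 71 without both libraries numbered 4.

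The joint share difference of -7.41 points ranged from -10.3 to -4.12 over single libraries left out, and that of the other 35 members, 0.561, from 0.316 to 0.948. Among block reads, the difference of the most abundant member ranged from -6.69 to -1.13, and that of the second, 3.49, from 0.343 without control replicate 2 to 6.11 without control replicate 4. As a percentage of reads outside the block, the joint difference was -161 points and that of the other 35 members -0.473. Among block reads without the most abundant member, the second differed by -1.66 points. Continuing the transformation by a polynomial for the leading genes, chosen after seeing the data, gave a joint difference of -6.85 points, and a slope of 1 on the log2 scale, chosen likewise, gave -4.80 points and 0.20 for the other 35 members.

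The deviations of same-numbered libraries had correlations of 0.19, -0.16 and 0.44 for numbers 2, 4 and 5. Differently numbered libraries were not compared, so whether the numbers pair the samples is not shown. The labels do not say what the numbers share, so the main fit left them out. With a replicate block, 0 genes and 0 members passed the adjusted threshold. At an unadjusted p under 0.05 were 232 genes and 2 members, ENSBTAG00000043582 (0.0166) and ENSBTAG00000043559 (0.0364). Share differences (-7.41 and 0.561 points) cannot change with this pairing. Depth limits the scarce members: 13 had too few reads to test.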
